A study of Drosophila melanogaster with 3 samples.

Results

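The 8 ecdysone response genes EcR, usp, Eip74EF, Eip75B, Eip78C, br, ftz-f1 and Hr39 were examined for sites of the chromatin protein lilliputian (lilli) in Drosophila melanogaster embryos, among 13945 annotated protein-coding genes. They were taken by name, and 3 kinds of position were read at each: every alternative transcription start site (TSS), the promoter region within 500 bp of it, and the introns. The material was whole embryos of mixed sex, 0 to 24 h old, from a transgenic line that carries lilli tagged with eGFP at its C terminus. Chromatin was immunoprecipitated with an antibody to GFP and sequenced in 3 biological replicates, which form 1 group with the same genotype, age and treatment, so there is no comparison of conditions. Each collection pools stages and cell types, and peaks of a few cells cannot be told apart from weak peaks of many.

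Ecdysone is the steroid hormone that times moulting and metamorphosis, and a pulse of it also occurs during embryogenesis, where it is needed for late morphogenesis. The hormone binds a heterodimer of the nuclear receptors EcR and usp (the fly RXR), which directly induces early genes such as Eip74EF, Eip75B and br. These encode transcription factors that then switch on or repress late genes, while ftz-f1 and Hr39 encode related nuclear receptors that act at other phases of the cascade. Lilli belongs to the AF4/FMR2 proteins and is part of the super elongation complex, which helps paused RNA polymerase II go on into the gene.

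Sequences at 8 of the members' peaks are shown to let the strongest sites and the ones with a recognisable short word be read directly. The third strongest peak, in an EcR intron, is described further on without its sequence. Each is the 121 bases centred on a peak summit, given 5′ to 3′ on the strand of the gene, from the RefSeq genome sequence of the dm6 (Release 6) assembly. The first 4 are the strongest sites of Eip75B, br, usp and ftz-f1, and capitals in the Eip75B promoter mark CTCTC, the reverse complement of the word GAGAG, which GAGA factor binds. In the next pair, both introns of Eip75B, capitals mark GGCGCCATC, a word singled out after these sequences had been read. In the last pair, introns of Eip74EF and Eip78C, capitals mark AGGTCA, the core word that many nuclear receptors recognise. A match of letters is a description and does not show that the factor binds there.
Eip75B, promoter of transcript C, chr3L:17999765-17999885 (minus strand): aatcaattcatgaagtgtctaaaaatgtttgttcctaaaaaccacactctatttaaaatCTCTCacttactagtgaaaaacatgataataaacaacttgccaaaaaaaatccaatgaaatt
br, intron, chrX:1618810-1618930 (plus strand): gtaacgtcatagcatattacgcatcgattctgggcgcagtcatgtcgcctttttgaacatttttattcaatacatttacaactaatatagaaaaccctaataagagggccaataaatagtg
usp, promoter of transcript A, chrX:2041379-2041499 (minus strand): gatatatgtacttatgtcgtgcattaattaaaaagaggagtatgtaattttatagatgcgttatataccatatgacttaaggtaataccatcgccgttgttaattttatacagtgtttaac
ftz-f1, intron, chr3L:18769490-18769610 (minus strand): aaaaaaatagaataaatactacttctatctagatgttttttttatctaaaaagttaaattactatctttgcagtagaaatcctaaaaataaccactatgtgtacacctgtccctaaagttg
Eip75B, intron, chr3L:18019744-18019864 (minus strand): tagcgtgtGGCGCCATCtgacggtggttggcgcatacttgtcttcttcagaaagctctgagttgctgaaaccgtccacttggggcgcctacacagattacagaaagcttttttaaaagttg
Eip75B, intron, chr3L:17988249-17988369 (minus strand): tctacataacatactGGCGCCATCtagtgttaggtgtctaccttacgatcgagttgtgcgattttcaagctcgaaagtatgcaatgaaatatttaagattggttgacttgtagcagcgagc
Eip74EF, intron, chr3L:17567010-17567130 (minus strand): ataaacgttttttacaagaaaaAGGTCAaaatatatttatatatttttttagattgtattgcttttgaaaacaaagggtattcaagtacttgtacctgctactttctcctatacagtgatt
Eip78C, intron, chr3L:21241616-21241736 (plus strand): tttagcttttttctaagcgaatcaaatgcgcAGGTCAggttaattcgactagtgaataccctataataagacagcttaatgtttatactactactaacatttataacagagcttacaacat

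The authors deposited 30000 peaks for each replicate and for the pooled reads, and 6970 optimal peaks, which are the 6970 pooled peaks with the highest signal. The list of 30000 pooled peaks is labelled as peaks and background, so its lower-ranked entries, called peaks here too, can be background. For 1 of them in EcR, of rank 29307, the deposited -log10 q-value was 0.156. The summit is a peak's highest point. A gene with an optimal summit no farther than 500 bp from 1 of its TSSs is called bound. The signal is the authors' own value per peak and serves only to rank peaks within a list, so the members' peaks are followed across replicates by rank, where 1 is strongest and a rank up to 6970 puts a peak among a replicate's strongest. Summits within 100 bp of each other are taken as the same peak. The lists hold no reads, so the depth of the libraries is unknown, and the control library was not analysed here.

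Within 100 bp of the summit, GAGAG occurred on either strand in 3 of the 8 promoter peaks and 5 of the 21 intron peaks of the members, against 20.3% of all optimal promoter peaks and 22.2% of all optimal intron peaks. AGGTCA stood beside 2 intron peaks, those of Eip74EF and Eip78C printed above, against 4.37% of all intron peaks, and beside none of the members' promoter peaks, against 3.54% of all promoter peaks. The centre of the ecdysone response element, TCANTGA, was found at 1 member peak, the ftz-f1 promoter, against 4.35% of all promoter peaks. It was at no intron peak of the members, against 5.83% of all intron peaks. The ftz-f1 promoter also held TATCGATA, the DNA replication-related element word, present at 9.44% of all promoter peaks. TCAAGG, the word bound by ftz-f1 and Hr39 proteins, was found at the Hr39 promoter peak, against 4.24% of all promoter peaks. No intron peak of the members had it, against 6.46% of all intron peaks. CAGGTAG, the word of the early embryonic activator Zelda, was found at none of the 29 member peaks, against 0.724% of all promoter and 0.865% of all intron peaks. Apart from GAGAG, each word was thus at 0 to 2 of the 29 member peaks, too few to set against these shares. GGCGCCATC, part of the consensus known for the insulator protein CTCF on one of its strands, was picked from the Eip75B intron sequences above, so its presence there is no finding. In the whole optimal list it stood at 11 of 2197 intron peaks and 19 of 3865 promoter peaks.

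The members held 29 optimal peaks, 8 within 500 bp of one of their own TSSs and 21 in introns. Of all 6970 optimal peaks, 55.5% were at promoters and 31.5% in introns, shares that take no account of gene length. Of the 8 genes, 5 were bound at a promoter (EcR, usp, Eip75B, ftz-f1 and Hr39), which is 62.5%, against 31.3% of all protein-coding genes. A gene with more TSSs has more places at which to be called bound, and the comparison does not allow for this. The other members, Eip74EF, Eip78C and br, had optimal peaks in introns and none at a promoter. Among the strongest 6970 peaks of each replicate, 5 members were bound in replicate 1, 5 in replicate 2 and 5 in replicate 3, against 30.5%, 31.7% and 30.1% of all genes. The genes were the same in replicates 1 and 2, and in replicate 3 Eip78C took the place of ftz-f1. With all 30000 pooled peaks, 7 of 8 members had a summit within 500 bp of a TSS, against 55% of all genes, and br was the exception. Of the 100 protein-coding genes nearest in length to each member, 61 to 82 had such a pooled summit, depending on the member. In the optimal list 33 to 43 of these 100 genes were bound. Of the 32 alternative TSSs, 7 had an optimal summit within 500 bp and 14 a pooled one. TSSs that lie close together can share a summit, and the share over all annotated TSSs was not computed. An optimal summit lay in an intron of 6 members, against 8.14% of all protein-coding genes. That share takes no account of length, and most members are long genes.

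**Figure D1:**
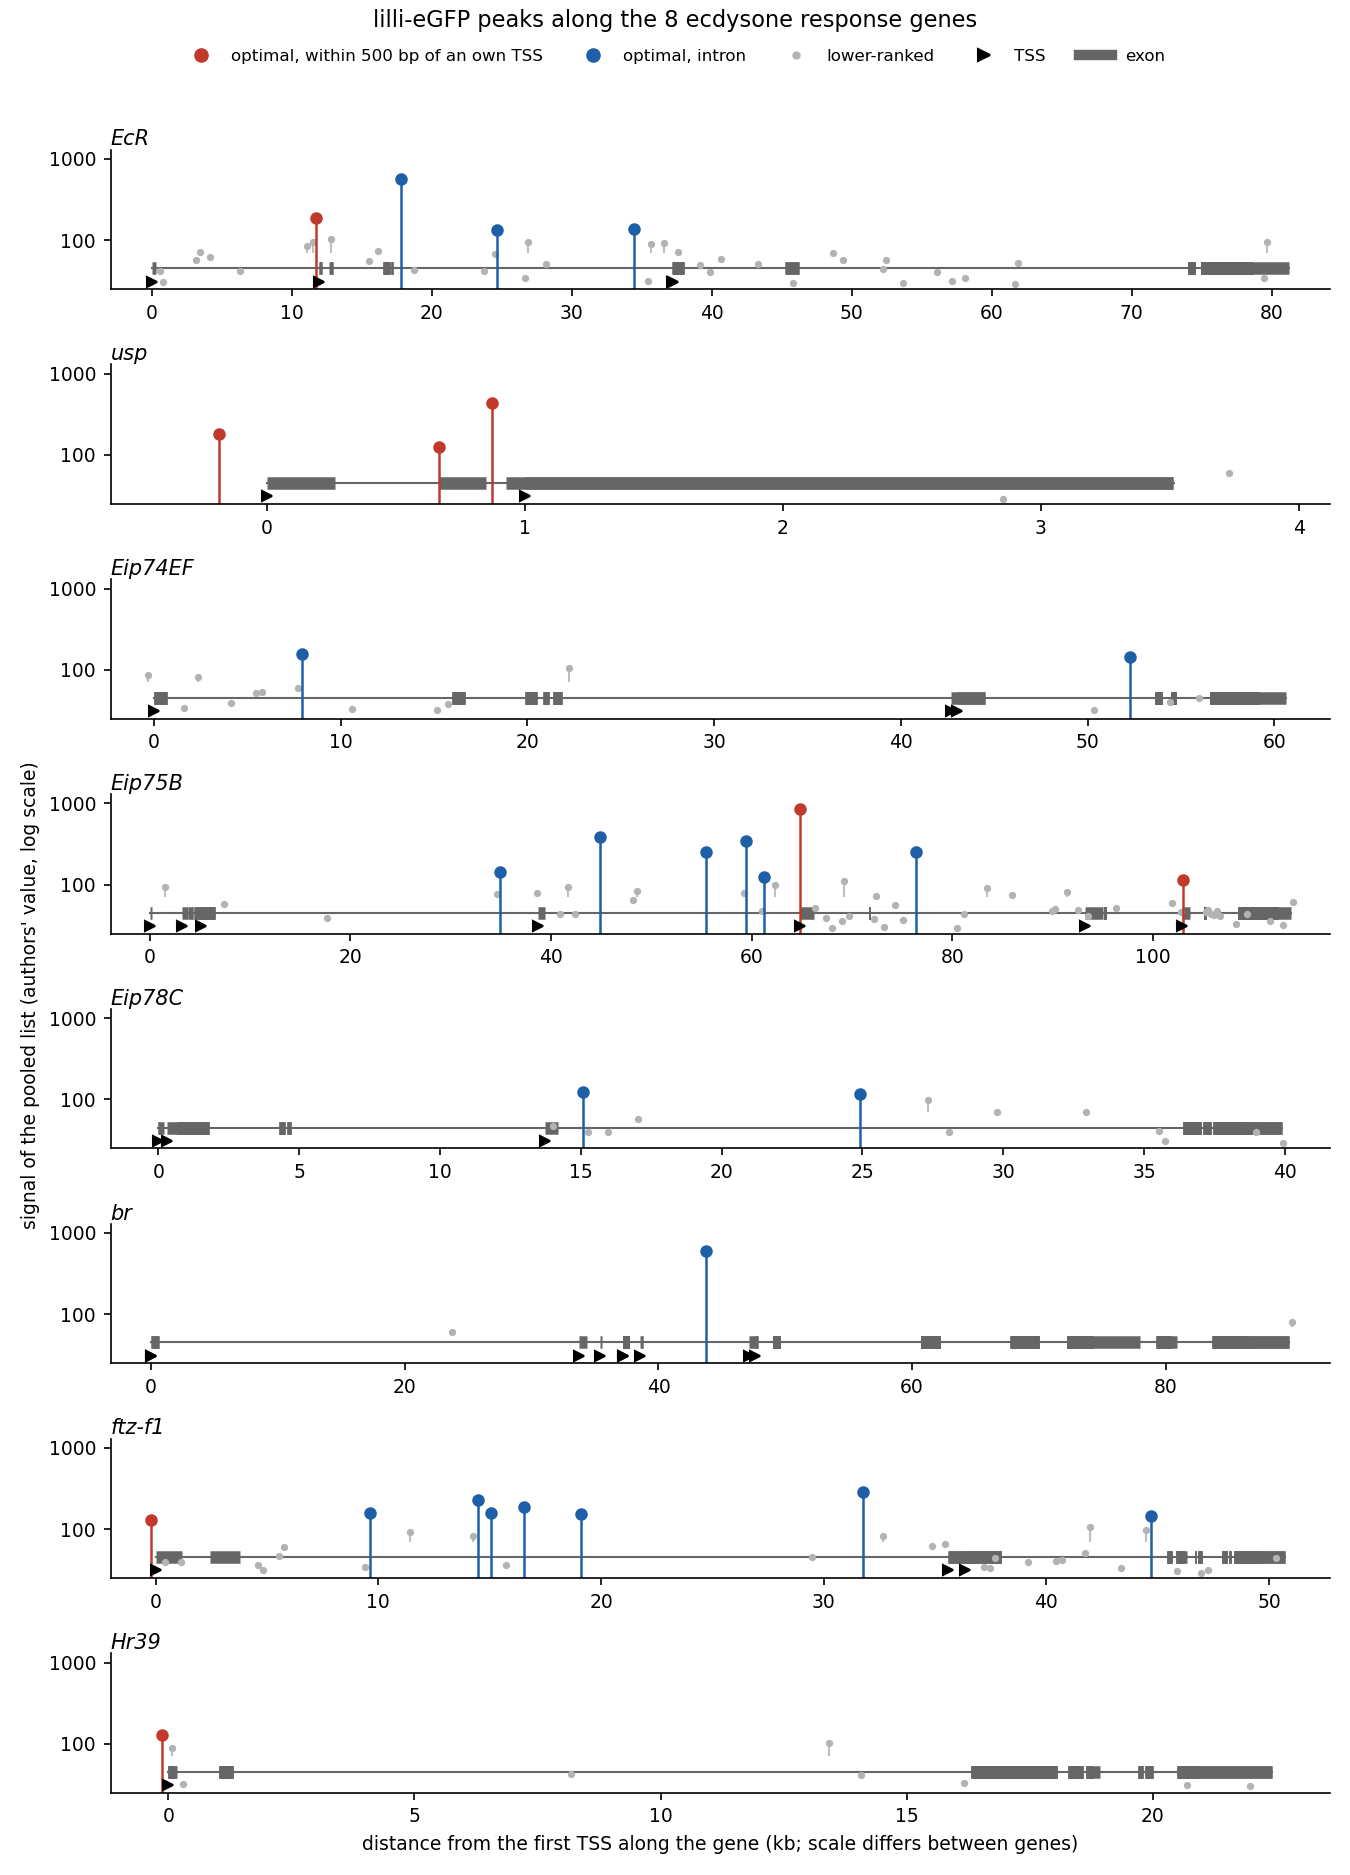
Positions of peaks along each of the 8 genes, drawn 5′ to 3′, with the distance from the first TSS in kb on the horizontal axis (the scale differs between genes) and the authors' signal of the pooled list on a logarithmic vertical axis. Red and blue pins are optimal peaks at promoters and in introns, grey dots lower-ranked pooled peaks, triangles TSSs and thick bars exons. Optimal peaks crowd the middle of Eip75B and the part of ftz-f1 upstream of its later start sites, whereas br has 1 strong intron peak among 9 TSSs without any.

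EcR, which encodes the hormone-binding receptor, spans 81.2 kb (chr2R:6087873-6169087, minus strand, FBgn0000546) and has 4 TSSs for 6 annotated transcripts. Its strongest peak was in an intron, 17801 bp from the first TSS (chr2R:6151067-6151477), with rank 701 in the pooled list and ranks 1239, 596 and 533 in replicates 1, 2 and 3. The peak was thus among the strong ones in each replicate. At promoters, the 1 optimal peak (chr2R:6157156-6157591) had its summit at -245 bp from the TSS of transcripts D and E, with rank 3827 in the pooled list and ranks 6629, 3456 and 3088 in the replicates. The TSS of transcript A had no pooled peak, only summits of rank 29790 in replicate 1 and 13138 in replicate 2. The TSS of transcripts B and C and that of G, close together, shared a lower-ranked pooled peak of rank 10890, which was at rank 5143 in replicate 1, at 12180 in replicate 3 and absent from replicate 2. Of the 4 TSSs, 1 was therefore found in each replicate's strongest peaks. The remaining intron peaks of EcR were weaker and differed between replicates. The summit 24691 bp from the first TSS had ranks 8904, 5848 and 5630 in replicates 1, 2 and 3, and the one 34468 bp away had ranks 3904, 4978 and 10925.

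The partner receptor gene usp is short, 3.51 kb (chrX:2038798-2042311, minus strand, FBgn0003964), with 2 transcripts and 2 TSSs. It has no intron base over 500 bp from any TSS, so it could have no intron peak under the rule used. Counted at any distance from a TSS, 1 optimal summit was in an intron. The gene held 3 optimal peaks, all at promoters. The strongest (chrX:2041290-2041569) had its summit at -127 bp from the TSS of transcript A, with rank 1072 in the pooled list and ranks 1078, 1354 and 840 in the replicates. A second summit upstream of the same TSS, at -331 bp, had rank 6092 in the pooled list and ranks 4275, 6037 and 7386, so it left the strongest peaks in replicate 3. The TSS of transcript B had a summit at -184 bp with pooled rank 3978 and ranks 6978, 3615 and 3205, just outside the strongest 6970 in replicate 1. The locus is crowded, since Actn, the alpha-actinin gene, has a TSS at the same distance from this last summit, and a TSS of CG4313, on the other strand, lies within 500 bp of both summits near transcript A. The peaks cannot be assigned to usp rather than to these neighbours from their position.

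Eip75B encodes a haem-binding nuclear receptor of the early response and carried 8 optimal peaks, as many as ftz-f1, of which 2 were at promoters and 6 in introns. It is the longest of the 8 genes, at 114 kb (chr3L:17950953-18064696, minus strand, FBgn0000568), and each of its 7 transcripts has its own TSS. The TSS of transcript C held the strongest peak of all members (chr3L:17999598-17999986), with its summit at -4 bp, rank 294 in the pooled list and ranks 271, 302 and 400 in the replicates. This single start site was strong in each replicate. The TSS of transcript D had a peak near the lower end of the optimal list (chr3L:17961493-17961928, summit at +103 bp), with pooled rank 6835 and ranks 6040, 7969 and 6626. Transcripts G and A had lower-ranked pooled summits, of rank 10129 at -19 bp and of rank 20090 at +309 bp. Transcripts E and B had no summit within 500 bp of their TSSs in the optimal, pooled or replicate lists, and transcript F had 1 in replicate 3, at rank 14031. Start sites of the same gene therefore ranged from rank 294 to no peak at all.

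The 4 strongest intron peaks of Eip75B were found in the strongest peaks of all 3 replicates. The highest (chr3L:18019699-18019924) had pooled rank 1369 and ranks 2162, 1049 and 1495, and it is the one whose sequence has GGCGCCATC near its 5′ end. The next (chr3L:18005021-18005456) had rank 1591 in the pooled list and ranks 1248, 2321 and 1688. The peak chr3L:18008983-18009418 had ranks 2669, 2867 and 2424, and chr3L:17988091-17988526, the other with GGCGCCATC, had ranks 2801, 2714 and 2509. Both of these lay within a narrow range of ranks in the replicates. The weakest intron peaks differed more. The summit 34891 bp from the first TSS had ranks 3138, 14850 and 5088 in replicates 1, 2 and 3, and the one 61263 bp away had ranks 4247, 13470 and 11750, so that replicate 1 alone placed it among its strongest. A further 39 lower-ranked pooled summits lay in introns of Eip75B.

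Eip74EF encodes an ETS-domain transcription factor of the early response. It spans 60.7 kb (chr3L:17558672-17619325, minus strand, FBgn0000567) and was not bound at any of its 3 TSSs. Transcripts A, C and E share a TSS whose best pooled summit, at -327 bp, had rank 9194. The best summits within 500 bp of this TSS in replicates 1, 2 and 3 had ranks 11014, 9434 and 11563, outside the strongest peaks of each. Only that of replicate 1, at -308 bp, was within 100 bp of the pooled summit. The TSSs of transcripts B and D had no summit within 500 bp in the pooled list or in any replicate list. Its optimal peaks were 2 intron peaks ranked in the lower part of the optimal list. The one 7907 bp from the first TSS (chr3L:17611200-17611635) had pooled rank 4699 and ranks 4744, 6195 and 5105, and the one with AGGTCA (chr3L:17566852-17567287) had pooled rank 5231 and ranks 6109, 4592 and 6118. Both were among the strongest peaks of all 3 replicates.

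The Broad-Complex gene br encodes zinc-finger transcription factors of the early response and had 1 strong intron peak and no promoter peak. It spans 89.7 kb (chrX:1575132-1664869, plus strand, FBgn0283451) with 16 transcripts and 9 TSSs, and no summit lay within 500 bp of any of them in the optimal, pooled or replicate lists. Its single optimal peak (chrX:1618713-1619019) had rank 628 in the pooled list and ranks 971, 599 and 496 in replicates 1, 2 and 3, and was the second strongest of the 29 after the Eip75B promoter. The summit lay 43738 bp from the first TSS, in an intron of 14 of the 16 transcripts and -3438 bp from the nearest br TSS. It also lay inside Mur2B, a longer gene on the other strand whose annotated body contains all of br, and within 1000 bp of a Mur2B TSS. Within the gene body br had 1 further pooled summit, an intron one of rank 13066, compared with 39 lower-ranked intron summits in Eip75B and 24 in EcR. A summit of rank 9918 just past the 3′ end of br was at the promoter of another gene.

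Eip78C, which encodes a nuclear receptor related to Eip75B, covers 39.9 kb (chr3L:21226609-21266503, plus strand, FBgn0004865). It had 2 optimal peaks, both in introns and both near the bottom of the optimal list. The peak with AGGTCA (chr3L:21241458-21241893), 1329 bp from the TSS of transcript B, had pooled rank 6202 and ranks 6295, 7624 and 7553. The other had pooled rank 6589 and ranks 11103, 6971 and 7287. In the replicates, 1 of the peaks was thus among the strongest of replicate 1 and neither among those of replicates 2 and 3. The TSS of transcript B itself had a pooled summit of rank 17161, at +264 bp. The best summits within 500 bp of this TSS in replicates 1, 2 and 3 had ranks 7236, 8110 and 6479, at +78, +203 and +73 bp. Only that of replicate 2 was within 100 bp of the pooled summit. The summit at +73 bp made Eip78C bound in replicate 3. The TSS of transcripts D and E and that of A had no summit in any list.

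The nuclear receptor gene ftz-f1, expressed from the mother as the partner of the pair-rule protein Ftz and again after each ecdysone pulse, had 8 optimal peaks, 1 at a promoter and 7 in introns. It covers 50.7 kb (chr3L:18750607-18801309, minus strand, FBgn0001078) with 3 TSSs for 4 transcripts. The promoter peak (chr3L:18801323-18801758), at -232 bp from the TSS of transcript B, had pooled rank 5920 and ranks 5317, 6832 and 9301, and so fell outside the strongest peaks of replicate 3. A noncoding gene, lncRNA:CR45939, starts within 500 bp of it too. The TSS of transcripts C and D had a lower-ranked pooled summit of rank 12128, at -139 bp. The best summits within 500 bp of this TSS in the replicates had ranks 14175, 8967 and 14858. Only that of replicate 2 was within 100 bp of the pooled summit. The TSS of transcript A had no summit in any list. Each of the 7 intron peaks ranked above the promoter peak in the pooled list. The strongest (chr3L:18769446-18769602) had pooled rank 2129 and ranks 1797, 2515 and 2593 in the replicates. Next came chr3L:18786733-18786914, with pooled rank 2974 and ranks 2762, 3384 and 3349, and then a summit of pooled rank 3836 with ranks 4438, 4018 and 3695. These 3 were steady across replicates. The other 4 intron peaks had pooled ranks of 4812, 4814, 4829 and 5244, of which the peak at 4814 was among the strongest of each replicate and the other 3 of 2 replicates each. Neighbouring intron summits of ftz-f1 were between 596 and 12932 bp apart, and the first 5 along the gene also lay inside lncRNA:CR45939, which overlaps it on the same strand. All but the last along the gene were in an intron of transcript B alone, upstream of the other start sites. The last was in an intron of all 4 transcripts.

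Hr39, whose protein recognises the same DNA word as ftz-f1, spans 22.4 kb (chr2L:21237250-21259675, plus strand, FBgn0261239), and its 4 transcripts share 1 TSS. It had 1 optimal peak (chr2L:21236912-21237347), at -120 bp, with pooled rank 6025 and ranks 4864 and 6113 in replicates 2 and 3. No summit of replicate 1 was within 100 bp of it, but replicate 1 had its own summit at +53 bp, of rank 4218. That summit belongs to a separate pooled peak at +83 bp, of pooled rank 8864, which replicate 3 had at rank 7276 and replicate 2 lacked. Each replicate thus had a promoter summit among its strongest peaks, but replicate 1 had it at another peak than replicates 2 and 3. CG31626 starts within 500 bp on the other strand. Hr39 had no optimal intron peak, and 4 lower-ranked pooled summits lay in its introns.

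**Figure D2:**
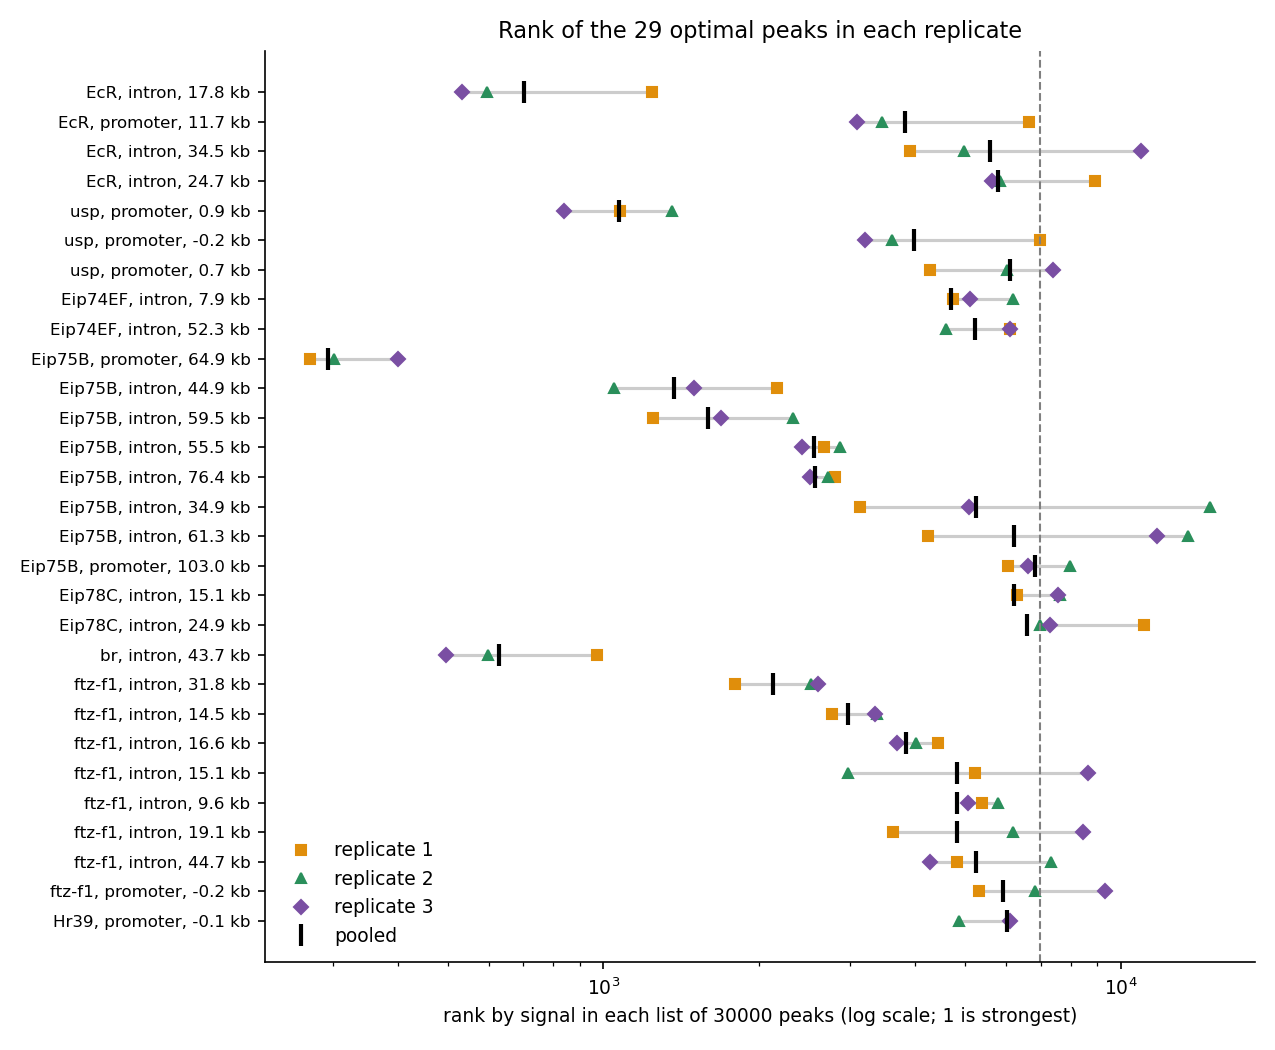
Rank by signal of each of the 29 optimal peaks of the members in the 3 replicate lists and the pooled list, on a logarithmic axis where 1 is the strongest of 30000 peaks. Each row is a peak, named by gene, place and distance from the first TSS, and the dashed line is rank 6970. The Eip75B promoter, the br intron and the strongest EcR intron peak lie far left in each replicate, and 14 of the 29 peaks pass the line in at least 1 replicate or lack a summit there.

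Over the 29 peaks, 15 were among the strongest 6970 of all 3 replicates (51.7%, against 63.5% of all 6970 optimal peaks), 11 of 2 replicates, 2 of 1 replicate and 1 of none. The peak found among the strongest of no replicate was the weaker Eip78C intron peak. The members' peaks also had lower median signal than the optimal list. Their promoter peaks had a median signal of 155.8 and their intron peaks 155.7, against 219.9 for all optimal promoter peaks and 184.9 for all optimal intron peaks. Of the 29, 10 ranked above the midpoint of the optimal list, 8 of them in introns and 2 at promoters (Eip75B transcript C and usp transcript A). Of the 8 promoter summits, 7 were upstream of the TSS. The base composition of the 51 bases at the summits was near that of other peaks at promoters, with a median of 38.2% G and C, against 37.3%, and somewhat higher in introns, at 35.3% against 31.4%.

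Since long genes offer more room for intron peaks, each member was set beside the 100 protein-coding genes nearest to it in length, with the members left out. The counts are a description of these lists. For ftz-f1, the 7 optimal intron summits compared with 1.46 ± 2.11 (mean ± SD over 100 genes of 45.9 to 55.9 kb). Of those genes, 3 had as many or more, namely pnt with 12, Raf with 10 and Pdp1 with 8, and 43 had none. In the strongest peaks of replicates 1, 2 and 3, ftz-f1 had 9, 6 and 6 intron summits (7 ± 1.73, SD, n = 3), and 2, 6 and 3 of the 100 genes had as many or more. Thus ftz-f1 stayed near the top of its length class in each replicate. Over all 13945 protein-coding genes it came at place 25 by number of optimal intron summits, at 1.73 per 10 kb of intron. That place was tied, and 35 genes, ftz-f1 included, had as many or more.

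Eip75B had 6 optimal intron summits, against 2.26 ± 2.83 for genes of 83.4 to 154 kb, of which 14 had as many or more and 37 had none. The largest counts in that class were 13 in CG1677, 11 in CG32264 and 10 in Tet. Its counts in the replicates were 8, 6 and 7 (7 ± 1), and 7, 11 and 10 of the 100 genes had as many or more. With all pooled peaks, Eip75B had 45 intron summits, against 15.8 ± 14.3, and 4 genes had as many or more, whereas ftz-f1 had 25, against 8.65 ± 7.52, and 6 had as many or more. Both genes were therefore high in their length class in the optimal list and in the pooled list, which also holds background.

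The other members were, in the optimal list, within 1 SD of the mean of their length class. EcR had 3 optimal intron summits, against 2.21 ± 2.92, with 31 of 100 genes at as many or more, and 3, 4 and 3 in the replicates (3.33 ± 0.577). Eip74EF had 2, against 1.95 ± 2.90, with 35 genes at as many or more, and 4, 2 and 2 in the replicates (2.67 ± 1.15). Eip78C had 2, against 1.34 ± 1.87, with 29 genes at as many or more, but 1, 0 and 0 in the replicates (0.333 ± 0.577). These counts overlapped the middle of their classes. Hr39 had none in the optimal list or in any replicate, and 56 of the 100 genes of its length had none in the optimal list. For usp the count could only be 0, since it has no intron base over 500 bp from any TSS. For br the 1 optimal intron summit compared with 2.06 ± 2.69, and 59 genes had as many or more. Its replicates gave 2, 1 and 1 (1.33 ± 0.577). With all pooled peaks br had 2 intron summits, against 14.1 ± 12.9, and 88 of 100 genes had as many or more, so it was low in its length class there, while EcR, with 27, had 16 genes at as many or more. In genes like EcR and br in length, the largest optimal counts were 12 in sbb and 11 in CG32264, with 11 in Tlk for EcR and 10 in Tet for br. Among genes like Eip74EF they were 14 in shn, 12 in pnt and 11 in ush, and among those like Eip78C 8 in tou, 7 in NFAT and 6 in RhoGAP19D.

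**Figure D3:**
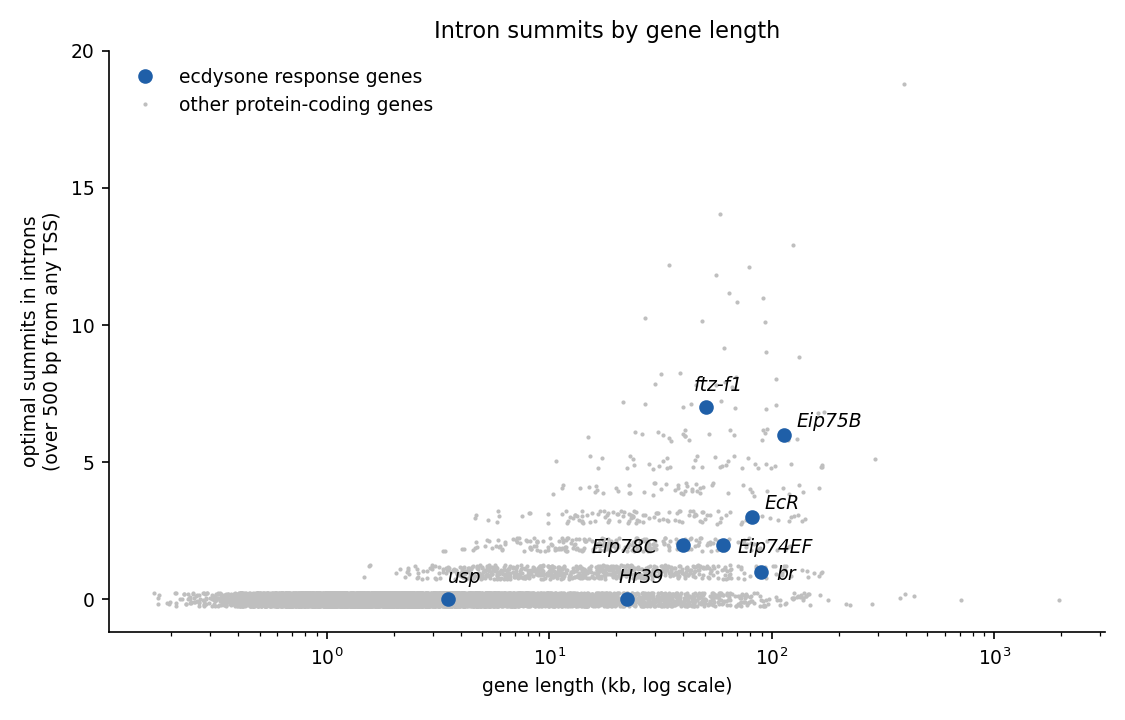
Number of optimal summits in introns against gene length in kb (logarithmic axis) for the 8 ecdysone response genes (blue, named) and the other protein-coding genes (grey, moved up or down by up to 0.25 so that they do not hide each other). Long genes reach higher counts, ftz-f1 lies near the top for its length, and br, with 1, lies among many genes of like length with 0 to 2.

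**Figure D4:**
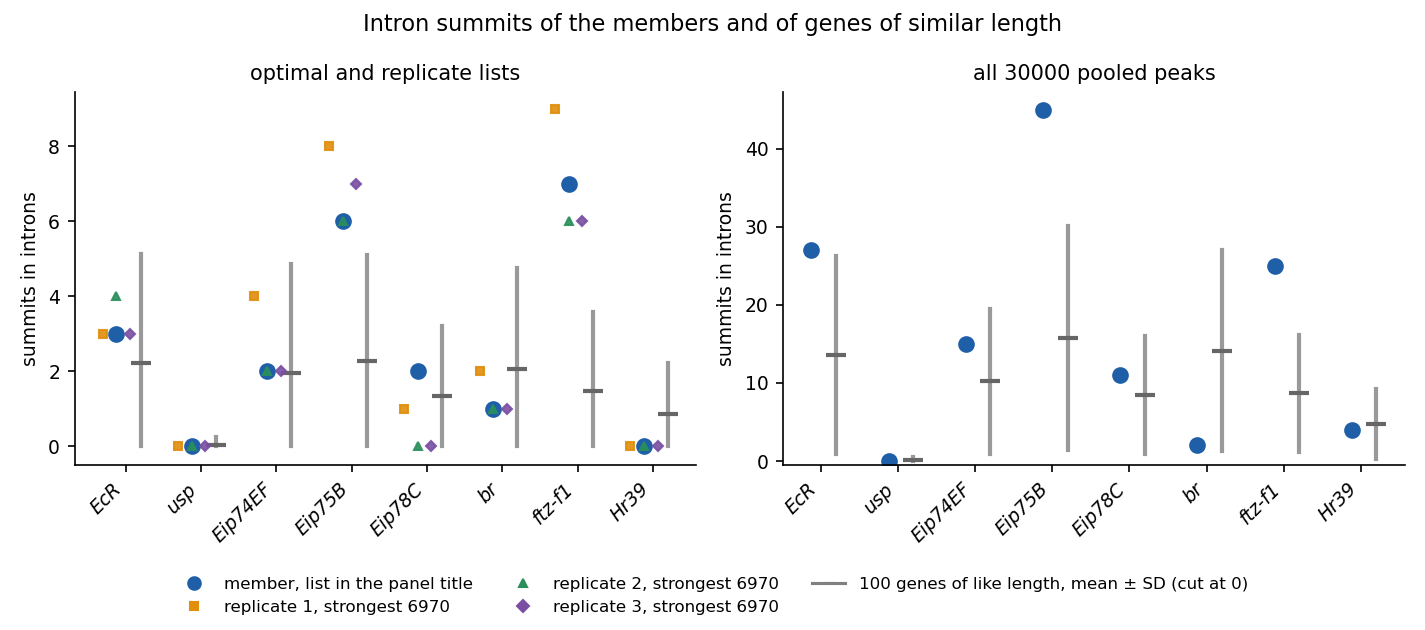
Intron summits of each member in the optimal list and in the strongest 6970 peaks of each replicate (left) and among all 30000 pooled peaks (right), with a grey bar for the mean and SD of the 100 genes nearest in length, cut at 0. Eip75B and ftz-f1 lie above the bar in both panels and in each replicate, EcR just above it in the pooled list, and br inside it on the left and near its lower end on the right.

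Other genes of the hormone's pathway, 89 listed by role, gave 22 with an optimal promoter summit (24.7%), against 31.3% of all protein-coding genes, and 22, 22 and 21 in the replicates. The groups differed. Of 10 receptor cofactors and chromatin partners, 8 were bound, with 8, 8 and 6 in the replicates, not always the same genes. The strongest were Alh at rank 408, tai, a coactivator that binds EcR, at rank 956 and bon, a TIF1-like nuclear receptor cofactor, at rank 2847. Unbound in the optimal list were Smr, a corepressor, and Utx, a histone demethylase. Yet Utx was among the strongest peaks of replicates 1 and 2, at ranks 5346 and 6234, and at rank 21117 in replicate 3. Of the 4 genes for transport, sensing at the membrane and breakdown, 3 were bound. These were E23, an ABC transporter gene, at rank 174, DopEcR, a membrane receptor for dopamine and ecdysone, at rank 1854 and Oatp74D, the importer of the hormone, at rank 2328, while Cyp18a1, which inactivates ecdysone, was not bound. DopEcR was among the strongest peaks of replicates 1 and 2 and at rank 9364 in replicate 3.

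Among 15 other nuclear receptors, 4 were bound. The promoter peak of Hr96, at rank 168, ranked above every peak of the members. That of ERR, at rank 556, ranked above all but the Eip75B promoter. Hnf4 followed at rank 2065 and Hr78 at rank 6762, and dsf, eg and Hr3 were among the unbound. In replicates 1, 2 and 3, Hr78 was at ranks 7328, 10986 and 3966, so it was among the strongest peaks of replicate 3 alone. Hr4 and Hr3, which act in the early-late step, had 8 and 4 optimal intron summits and no optimal promoter summit, like Eip74EF, Eip78C and br. Of 12 genes listed for hormone synthesis, 2 were bound, and neither encodes one of the steroid-converting enzymes. They were ecd, at rank 2842, needed for ecdysone production, and mld, at rank 4005, a zinc-finger gene. None of dib, nvd and ouib was bound, nor were Ptth, tor, Ilp8 and Lgr3, which control the prothoracic gland. Of 23 further early and late puff genes, 4 were bound. They were Eip63F-1 at rank 364, vri at rank 982, crol at rank 4177 and Eip63E at rank 5469, and Eig71Ea, Eig71Eb and Eig71Ec were among those without. Eip63E was among the strongest peaks of replicates 1 and 2 and at rank 8642 in replicate 3. The 16 glue and pupal cuticle genes, such as Edg78E, Edg84A and Edg91, gave 0 in the optimal list and 0, 1 and 0 in the replicates. Of 5 juvenile hormone partners, Fkbp39 was bound at rank 1858, and Kr-h1, Met, gce and jhamt were not. However, gce was among the strongest peaks of replicates 1 and 3, at ranks 4242 and 4948, and at rank 9934 in replicate 2.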

How the data were processed

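Per the labels, sonicated fragments of whole-embryo chromatin measured 200 to 800 bp, and the 3 libraries are biological replicates of 1 group. Per the file headers in the deposited text, a replicate's peaks were made from its alignment with a control alignment, and optimal peaks were chosen by irreproducible discovery rate. The aligner and peak caller were not given in the sources used here. The authors' deposited signal values belong to single peaks, and the deposited -log10 q-values, which share 1 highest value in 6088 optimal peaks, were not used to rank.

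Coordinates are 1-based on dm6 and genes are from Ensembl release 115 on the same assembly. An intron summit lay in a gene body, in no exon of any gene and over 500 bp from any TSS. A peak of a replicate is called strongest if it is in that list's top 6970. Words were searched on both strands within 100 bp of the summit. Signal tracks and the lists on the older assembly were not used here, and depth is unknown. The members and lists were chosen with earlier results of these data known. Named genes are the members, in each pathway group up to 3 bound genes by signal and up to 3 unbound in alphabetical order (all of groups of up to 6), the up to 3 genes with most intron summits among each member's length class, and genes at the members' peaks. Hr4 and Hr3 and the word GGCGCCATC were chosen after seeing their values, and so were Smr and Utx as the unbound pair of their group. The rules that place summits at promoters and in introns were checked on planted positions, which is no test of the counts. Alternatives changed the promoter window, number of peaks, peak position, TSS set, intron rule, length class and replicates. Python 3.11.15, numpy 2.4.6, pandas 2.3.3 and matplotlib 3.10.9 were used.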

Additional observations from a re-analysis of the deposited data

How the results depend on the processing

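The members bound at a promoter numbered 5 with promoter windows of 250 and 1000 bp, with peak middles, with TSSs of protein-coding transcripts and in each replicate alone. Among optimal peaks ranked above the list's midpoint 2 were left, usp and Eip75B, and among optimal peaks shared by the other replicates 3 to 4, the lowest without replicate 2. Without replicate 1 or 2 ftz-f1 was lost, and without replicate 2 or 3 Hr39, whose peak had no replicate 1 summit within 100 bp. The total of 21 intron summits fell to 8 among those peaks and was 13 to 15 leaving out each replicate, the lowest without replicate 1, where 4 of the 7 of ftz-f1 were left. Without replicate 2, EcR kept 1 of 3, and Eip78C had 0 without any one of the replicates. These sets of 4827 to 5123 peaks are also stricter than the optimal list. The br peak was not counted with a limit of 1000 bp from any TSS, because of Mur2B. Pairs of a searched word and a member peak numbered 13 within 100 bp, 6 within 50 bp and 24 within 200 bp. GGCGCCATC, chosen after seeing the data, was at 1 of 21 intron peaks within 50 bp and at 2 within 200 bp. Other values of the main counts, 29 in all, stayed within 1.5 times, and 37 values for single members or words moved by more. No paired analysis was possible because there is 1 group and no test. Unknown depth limits the reading of missing peaks: no peak in a list does not show absence of lilli.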
